A study of Mus musculus with 22 samples.

Results

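Nkx2-1, Six3, Nr5a1, Fezf1, Foxb1, Barhl1, Hmx2, Lhx6 and Lhx8 are transcription factors whose expression marks separate parts of the mouse hypothalamus and its borders. They were taken by gene symbol from a table of 41456 genes, so that 9 genes of 41456 are described here, and their levels were read as a record of which regions each dissected sample held. RNA with poly(A) tails was sequenced from the hypothalamus of C57BL/6J mice in 22 libraries, of which 17 were used. Mutant mice (PWScrm+/p−) carry a paternal loss of Snord116, a cluster of small nucleolar RNA genes of the Prader-Willi region, and control mice (PWScrm+/p+) do not. The 17 libraries are 4 of mutant mice at Zeitgeber time (ZT) 6 after 6 h of sleep deprivation (SD), 2 of undisturbed mutant mice at ZT6, 4 of control mice at ZT6 after 6 h of SD, 4 of undisturbed control mice at ZT6 and 3 of control mice at ZT0, the start of the light period. No mutant library at ZT0 was among them. The labels give neither sex nor age and do not say how the hypothalamus was cut out, and all mice share the C57BL/6J strain.

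In an embryo, such factors divide the hypothalamus into fields by being switched on in overlapping domains, and many stay on in the adult neurons that descend from each field. In a piece of dissected tissue their transcripts therefore follow both how much of each nucleus was included and how active each gene was per cell. Fewer cells of a type and less RNA per cell cannot be told apart in bulk samples of this kind. Nkx2-1 is a homeodomain factor needed to form the ventral hypothalamus. Six3 is a homeodomain factor of the anterior forebrain and hypothalamus. Nr5a1 (steroidogenic factor, a nuclear receptor) and Fezf1 (a zinc-finger repressor) mark neurons of the ventromedial nucleus. Foxb1 (a forkhead factor) marks the mammillary body, and Barhl1 (a homeodomain factor) the mammillary and subthalamic territory behind it. Hmx2 (a homeodomain factor) acts together with Hmx3 in forming the neurons of the arcuate nucleus that make growth hormone-releasing hormone. Lhx6, a LIM homeodomain factor of inhibitory neurons, is also on in hypothalamic neurons that promote sleep, and Lhx8, its close relative, is best known in cholinergic neurons of the basal forebrain, just outside the hypothalamus.

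On GRCm38 in the GENCODE M21 annotation, each of the 9 is a protein-coding gene. Nkx2-1 lies at chr12:56531958-56536908, Six3 at chr17:85613608-85629302, Nr5a1 at chr2:38692656-38714542, Fezf1 at chr6:23245044-23248362, Foxb1 at chr9:69757710-69760940, Barhl1 at chr2:28907679-28916668, Hmx2 at chr7:131548773-131558014, Lhx6 at chr2:36081953-36105408 and Lhx8 at chr3:154306294-154330659. Six3 and Hmx2 lie on the plus strand and the other 7 on the minus strand. Some exons overlap other annotated genes. Exons of the antisense gene B230323A14Rik cover 418 bases of the Foxb1 exons, Six3os1 and Gm28528 cover 106 and 168 bases of the Six3 exons, all on the opposite strand, and Gm27953 covers 104 bases of the Lhx6 exons on the same strand, with 0 to 3 counts of its own in a library. The labels do not say whether the libraries kept the strand, so the Foxb1 and Six3 counts are uncertain in those stretches.

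RefSeq promoters, from 250 bases before to 50 bases after a start (GRCm38.p6), were matched for 7 of the 9 genes, 11 promoters in all. The 3 below are shown because Nkx2-1 belongs to the pair of factors with the highest correlation across libraries, and Fezf1 and Barhl1 form the next pair. Capitals mark TAATTA, a core that many homeodomain factors bind. It and CAAGGTCA were searched on both strands. They are given from 5′ to 3′ on the minus strand, at chr12:56536859-56537158, chr6:23248215-23248514 and chr2:28916619-28916918.
Nkx2-1: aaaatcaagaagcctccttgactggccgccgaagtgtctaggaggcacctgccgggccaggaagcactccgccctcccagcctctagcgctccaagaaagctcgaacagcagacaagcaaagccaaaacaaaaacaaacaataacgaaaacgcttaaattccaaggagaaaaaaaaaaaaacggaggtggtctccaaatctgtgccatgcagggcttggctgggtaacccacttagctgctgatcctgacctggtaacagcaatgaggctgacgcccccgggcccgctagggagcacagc
Fezf1: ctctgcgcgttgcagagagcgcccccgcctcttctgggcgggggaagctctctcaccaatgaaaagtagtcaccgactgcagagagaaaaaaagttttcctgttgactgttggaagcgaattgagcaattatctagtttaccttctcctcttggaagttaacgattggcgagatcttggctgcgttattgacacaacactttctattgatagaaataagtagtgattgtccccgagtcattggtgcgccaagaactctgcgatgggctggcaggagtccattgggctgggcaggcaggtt
Barhl1: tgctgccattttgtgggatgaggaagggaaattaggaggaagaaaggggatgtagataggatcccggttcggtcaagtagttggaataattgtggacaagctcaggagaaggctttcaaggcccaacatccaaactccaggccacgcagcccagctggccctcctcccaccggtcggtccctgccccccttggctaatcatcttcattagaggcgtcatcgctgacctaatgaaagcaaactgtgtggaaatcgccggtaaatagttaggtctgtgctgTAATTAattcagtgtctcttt
The Barhl1 sequence was the only one of the 11 with TAATTA, which 5.29% of 32851 mouse promoters of the same length hold. CAAGGTCA, a sequence that Nr5a1 binds, was in none of the 11 and in 1.56% of all promoters, so no window held both. The GC content of the 11 ran from 47.0% to 67.7%, beside a median of 52.7% over all promoters.

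The 17 libraries held 14609454 to 46965594 counts, and 3 counts, the limit that a count of 0 allows, stood for 0.0639 to 0.205 counts per 1000000 counts (CPM) in them. The Snord116 genes had no count in any of the 6 mutant libraries and at least 1 count in 8 of the 11 control libraries, with at most 109 counts for a gene, in libraries whose poly(A) selection captures little of such RNAs. Their host transcript Snhg14 had 199 to 372 CPM in mutant and 174 to 2040 CPM in control libraries, which overlap. The overlap comes from control ZT6 replicate 4 (231 CPM) and control SD replicate 4 (174 CPM), both without a Snord116 count. The next lowest control library, control SD replicate 3, had 393 CPM. All were kept in the groups their labels give, and their genotype was not tested. Markers of neurons and of hypothalamic nuclei were present: 7 neuron genes summed to 2098 to 3524 CPM, 6 genes of the paraventricular and supraoptic nuclei to 279 to 1146 CPM, and all 43 other regional factors on a list of hypothalamic and neighbouring domains passed the filter on low counts. Thalamus, striatum and cortex markers summed to 342 to 791, 120 to 219 and 32.3 to 55.6 CPM. The sum of 10 pituitary markers reached 20844 CPM in 1 library (mutant SD replicate 1). It was 1135 CPM in mutant SD replicate 4, 678 CPM in control ZT6 replicate 1 and between 1.88 and 37.3 CPM in the other 14. Of the 5 libraries left out, mutant ZT6 replicate 2 held 7348 counts in all, and the other 4 had neuron markers at 1.60 to 4.97 CPM and fibroblast markers at 7779 to 23034 CPM, against 88.1 to 356 CPM in the 17.

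Per kilobase of exon, Nkx2-1 stood first among the 9 factors, with a mean over the 17 libraries of 12.6 ± 2.82 CPM per kb (± standard deviation, n = 17, as for all means below). Foxb1 followed at 7.43 ± 2.38, Six3 at 7.42 ± 1.93 and Fezf1 at 7.04 ± 2.14 CPM per kb, and these 3 differed by less than their spread. Nr5a1 stood at 3.88 ± 1.55 CPM per kb. Lhx6 stood at 1.24 ± 0.435 CPM per kb, Hmx2 at 0.742 ± 0.205 and Barhl1 at 0.628 ± 0.293. Hmx2 and Barhl1 differed by less than their spread. Lhx8 was last, at 0.150 ± 0.236 CPM per kb. The lengths are those of all annotated exons together, which need not be the transcripts made in this tissue, and the labels do not say whether the counts had been scaled by transcript length when they were summed to genes, so this order holds for the counts as deposited.

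The factors varied to different degrees between libraries of 1 group. The biological coefficient of variation of the edgeR fit, which is the spread between libraries of a group beyond counting error, was 24.4% for Nkx2-1 and 25.3% for Six3, beside a median of 33.1% over all 21346 genes tested. These were the steadiest of the 9. Fezf1 (30.1%), Foxb1 (32.4%), Hmx2 (33.5%) and Lhx6 (33.9%) were near the median, with Nr5a1 (38.8%) and Barhl1 (46.3%) above it. Lhx8 stood apart at 194%, higher than in 98.5% of all genes tested, while counting error alone gives 31.7% at its depth.

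**Figure D1:**
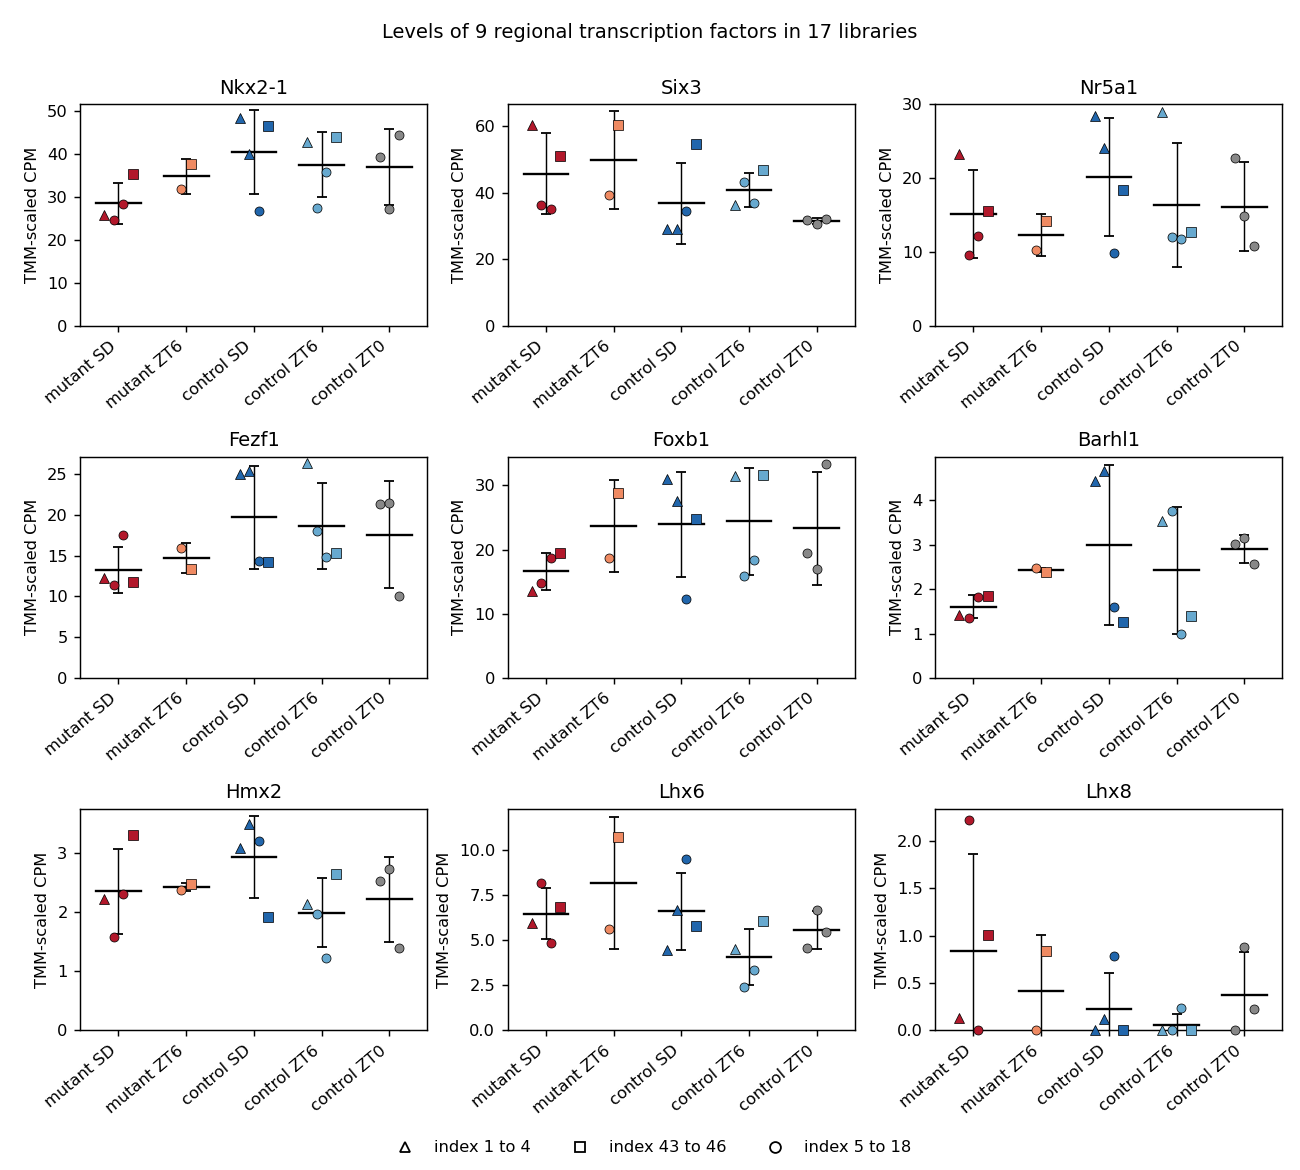
Level of each of the 9 factors (y axis, TMM-scaled CPM, from 0) in each of the 17 libraries (points), by group (x axis), with the mean (line) and standard deviation (bar, cut off at 0). Symbols give what is called the index number of the library here, the number after the S in its sample title. Groups compared overlap except for Six3 in control mice at ZT6 and ZT0 and Barhl1 in mutant mice after SD and at ZT6.

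After SD, the genotypes were compared with 4 libraries each, and no factor passed the test after adjustment over all genes. Nkx2-1 had the smallest unadjusted p of the 9, with a lower mean in mutant than in control mice. Nkx2-1 had 25.9, 24.6, 28.4 and 35.4 CPM (scaled by TMM, as all levels from here on) in mutant SD libraries, against 48.4, 40.2, 26.8 and 46.7 CPM in control SD libraries. The mutant values were all below 3 of the 4 control values, and the control value of 26.8 CPM lay among them. The mean was 28.6 ± 4.81 CPM in mutant SD mice and 40.5 ± 9.79 CPM in control SD mice (standard deviation, n = 4 each), a log2 fold change of −0.50 ± 0.22 (SE) with an unadjusted p of 0.0356 and an adjusted p of 0.999 in the edgeR quasi-likelihood test, which is no call. None of the 9 factors was called in this comparison, as was none of the 21346 genes tested (0%), while 2.96% of genes were under 0.05 before adjustment and 1 gene was called by DESeq2. Six3 had 60.3, 36.3, 35.2 and 51.0 CPM in mutant SD libraries, against 29.0, 29.2, 34.4 and 54.8 CPM in control SD libraries, a log2 fold change of 0.31 ± 0.23 (adjusted p = 0.999, edgeR). The mutant library with the most Six3, at 60.3 CPM, is also the one with pituitary markers at 20844 CPM, and their part in its Six3 was not tested. Without the 3 libraries with pituitary markers, the log2 fold change of Six3 was 0.01 and that of Nkx2-1 −0.56 (adjusted p = 0.835, edgeR). Of the mutant SD libraries, that fit kept replicates 2 and 3 alone. With the sets of library index numbers described further on as covariates, that of Nkx2-1 was −0.40 (adjusted p = 0.535, edgeR).

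The ventromedial and mammillary factors had lower means in mutant SD than in control SD mice, with overlapping libraries and no call. Fezf1 had 12.2, 11.4, 17.5 and 11.8 CPM in mutant SD libraries, against 24.97, 25.4, 14.3 and 14.2 CPM in control SD libraries (log2 fold change −0.58 ± 0.28, adjusted p = 0.999, edgeR). Its 2 high control values came from replicates 1 and 2. Barhl1 had 1.42, 1.35, 1.82 and 1.85 CPM in mutant SD libraries, against 4.43, 4.66, 1.61 and 1.26 CPM in control SD libraries (log2 fold change −0.90 ± 0.46, adjusted p = 0.999, edgeR). The same 2 control libraries, both of index numbers 1 to 4, stood high for both genes, and for Barhl1 the other 2 lay among or below the mutant libraries. With the index sets as covariates, the log2 fold changes were −0.40 for Fezf1 and −0.47 for Barhl1. Foxb1 had 13.6, 14.8, 18.7 and 19.4 CPM in mutant SD libraries, against 31.0, 27.6, 12.3 and 24.8 CPM in control SD libraries (log2 fold change −0.53 ± 0.31, adjusted p = 0.999, edgeR). Nr5a1 had 23.3, 9.55, 12.2 and 15.6 CPM in mutant SD libraries, against 28.5, 24.1, 9.92 and 18.4 CPM in control SD libraries (log2 fold change −0.42 ± 0.38, adjusted p = 0.999, edgeR), and the genotypes overlapped throughout. Pituitary markers, 10 of 10 of which had positive log2 fold changes here, summed to 1.88 to 20844 CPM in mutant SD and 2.64 to 37.3 CPM in control SD libraries. Without the 3 libraries with pituitary markers the log2 fold change of Nr5a1 was −0.84 (adjusted p = 0.835, edgeR). That fit kept mutant SD replicates 2 and 3, both of index numbers 5 to 18, and all 4 control SD libraries. Of these control libraries, 2 have index numbers 1 to 4, a set in which Nr5a1 was called higher, as given further on. Hmx2 averaged 2.35 ± 0.714 CPM in mutant SD mice and 2.93 ± 0.697 CPM in control SD mice, and Lhx6 6.46 ± 1.42 CPM in mutant SD mice and 6.61 ± 2.15 CPM in control SD mice (standard deviation, n = 4 each). In all, 7 of the 9 factors had negative and 2 positive log2 fold changes, with a median of −0.42 beside −0.02 over all genes, of which 52.5% were negative. Of 7 markers of mammillary and subthalamic territory (such as Lmx1b, Lhx5 and Foxa1), 7 were also negative with none called, of 6 tested of the arcuate nucleus 6 were negative with none called, and of 9 of the ventromedial nucleus 7 were negative with none called. Their medians were −0.38, −0.51 and −0.11. Mammillary and subthalamic sums were 60.0, 50.3, 57.6 and 97.2 CPM in mutant SD, against 90.7, 83.2, 44.2 and 100.8 CPM in control SD libraries. Arcuate sums were 79.4, 57.7, 60.8 and 94.3 CPM, against 114, 98.6, 64.8 and 136 CPM. Over all groups, their median sums were 78.3 and 100.8 CPM in index numbers 1 to 4, and 55.0 and 64.8 CPM in 5 to 18. Control SD has 2 and 1 libraries of these sets, mutant SD 1 and 2. The part of the sets here was not tested. Not all lists were mostly negative. Of suprachiasmatic and anterior markers 5 of 6 were positive (median 0.17), as were 4 of 6 of basal forebrain cholinergic neurons (median 0.33). Of the paraventricular and supraoptic nuclei 4 of 6 were negative (median −0.01), as were 26 of the 43 other regional factors (median −0.02). These last medians were near the −0.02 of all genes, and none of these markers or factors was called.

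Undisturbed at ZT6, the genotypes were set against each other with 2 mutant and 4 control libraries. Lhx6 had 5.60 and 10.8 CPM in mutant ZT6 libraries, against 4.51, 2.43, 3.34 and 6.06 CPM in control ZT6 libraries. One mutant library lay within the control values and the other above all 4. The means were 8.18 ± 3.64 CPM in mutant ZT6 mice (n = 2) and 4.08 ± 1.57 CPM in control ZT6 mice (n = 4), a log2 fold change of 1.00 ± 0.38 with an unadjusted p of 0.0176 and an adjusted p of 0.999 in edgeR's test. None of the 9 factors was called, and none of 21346 genes (0%), with 2.65% of genes at an unadjusted p under 0.05 and 15 genes called by DESeq2. Log2 fold changes were negative for 5 of the 9 factors and for 56.5% of all genes. Without mutant ZT6 replicate 4, the log2 fold change of Lhx6 was 0.51, and with the index sets as covariates it was 0.88 (adjusted p = 0.952, edgeR). The 7 other factors apart from Lhx8 had log2 fold changes from −0.43 to 0.29, and each of their ranges overlapped between genotypes. Six3 had 39.4 and 60.2 CPM in mutant ZT6 libraries, against 36.1, 43.3, 36.9 and 46.9 CPM in control ZT6 libraries. Nkx2-1 averaged 34.8 ± 4.08 CPM in mutant ZT6 mice and 37.6 ± 7.64 CPM in control ZT6 mice.

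Averaged over ZT6 and SD, 6 mutant libraries were set against 8 control libraries. None of the 9 factors and none of 21346 genes was called (0%), with 3.6% of genes at an unadjusted p under 0.05 and 5 called by DESeq2. Log2 fold changes were negative for 6 of the 9 factors, with a median of −0.28, and for 57.1% of all genes, with a median of −0.05. Fezf1 had a log2 fold change of −0.46 ± 0.23 and Lhx6 one of 0.49 ± 0.25 (adjusted p = 0.942 for both, edgeR). Without mutant ZT6 replicate 4, the value of Lhx6 was 0.25. Fezf1 averaged 13.7 ± 2.48 CPM in mutant mice (n = 6) and 19.2 ± 5.42 CPM in control mice (n = 8). The 95% interval of the mean genotype difference, from the t distribution on the degrees of freedom of the edgeR test, ran from −0.68 to 0.06 on the log2 scale for Nkx2-1 and from −0.08 to 0.68 for Six3. It was wider for Nr5a1, from −1.07 to 0.23.

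Sleep deprivation in control mice was set against undisturbed ZT6. Lhx6 had 4.43, 6.68, 9.51 and 5.80 CPM in control SD libraries, against the 4.51, 2.43, 3.34 and 6.06 CPM of control ZT6 libraries given above. The 2 highest values were of SD libraries, and the rest of the SD values lay among those of ZT6 libraries. The means were 6.61 ± 2.15 CPM in control SD mice and 4.08 ± 1.57 CPM in control ZT6 mice (standard deviation, n = 4 each), a log2 fold change of 0.69 ± 0.32 with an unadjusted p of 0.0457 and an adjusted p of 0.797 in edgeR's test. With the index sets as covariates it was 0.74 (adjusted p = 0.538), and without control SD replicate 3 it was 0.46. None of the 9 factors was called and none of 21346 genes (0%), although 6.17% of genes were under 0.05 before adjustment and 18 were called by DESeq2. Log2 fold changes were positive for 7 of the 9 factors and for 47.4% of all genes. Hmx2, the arcuate factor, had 3.09, 3.50, 3.21 and 1.92 CPM in control SD libraries, against 2.13, 1.961, 1.23 and 2.65 CPM in control ZT6 libraries (log2 fold change 0.56 ± 0.33, adjusted p = 0.896, edgeR). The SD values of replicates 1 to 3 lay above every ZT6 value, and that of replicate 4 lay below 3 of the 4. Nkx2-1, Fezf1, Foxb1 and Six3 had log2 fold changes from −0.15 to 0.11 there, with SEs from 0.22 to 0.31.

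In mutant mice, SD libraries numbered 4 and ZT6 libraries 2. Barhl1 had 1.42, 1.35, 1.82 and 1.85 CPM in mutant SD libraries, against 2.47 and 2.39 CPM in mutant ZT6 libraries. The ranges did not overlap, as was the case with lower values after SD for 5.08% of all genes, and the log2 fold change of −0.60 ± 0.55 had an adjusted p of 1 in edgeR's test. None of the 9 factors was called and none of 21346 genes (0%), with 2.16% of genes at an unadjusted p under 0.05 and 17 called by DESeq2. Log2 fold changes were negative for 7 of the 9 factors and for 51.4% of all genes. Lhx6 averaged 6.46 ± 1.42 CPM in mutant SD mice (n = 4) and 8.18 ± 3.64 CPM in mutant ZT6 mice (n = 2), a log2 fold change of −0.34 ± 0.38. It was 0.19 without mutant ZT6 replicate 4 and 0.18 without the libraries of index numbers 43 to 46. The difference between the responses of the genotypes to SD was tested as an interaction. It was −1.03 ± 0.50 on the log2 scale for Lhx6, with an unadjusted p of 0.0541 and an adjusted p of 1 in edgeR's test, and none of the 9 factors and none of 21346 genes was called (0%), with 2.48% at an unadjusted p under 0.05 and 8 called by DESeq2. It was negative for 7 of the 9 factors and for 47.4% of all genes. Without mutant ZT6 replicate 4 the interaction of Lhx6 was −0.52. The interaction of Barhl1 was −0.90 ± 0.72 and that of Nr5a1 0.01 ± 0.60. Of the pituitary markers, 10 of 10 had positive interactions, with a median of 11.6 on the log2 scale, and the Nr5a1 value was −0.42 without control ZT6 replicate 1, −0.27 without mutant SD replicate 1, from −0.21 to 0.24 without any 1 of the other 15 libraries, and −0.83 without the 3 libraries with pituitary markers. The comparisons share libraries, control libraries among them, so their values are not independent of each other.

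Time of day was compared in control mice alone. Six3 had 36.1, 43.3, 36.9 and 46.9 CPM in control ZT6 libraries, against 31.8, 30.5 and 31.998 CPM in control ZT0 libraries. Each ZT6 value was above each ZT0 value, which was so for 1.95% of all genes. The means were 40.8 ± 5.18 CPM at ZT6 (n = 4) and 31.4 ± 0.836 CPM at ZT0 (n = 3), a log2 fold change of 0.38 ± 0.25, beside a median of 0.09 over all genes, and the adjusted p was 0.960 in edgeR's test. None of the 9 factors was called and none of 21346 genes (0%), with 3.25% at an unadjusted p under 0.05 and 23 called by DESeq2. Log2 fold changes were positive for 5 of the 9 factors and for 59.7% of all genes. The 3 ZT0 libraries all have index numbers from 5 to 18, and the ZT6 library with the most Six3 has an index number from 43 to 46, a set in which Six3 was called higher, as given further on. With the index sets as covariates the log2 fold change was 0.22 (adjusted p = 0.816, edgeR). Nkx2-1 averaged 37.6 ± 7.64 CPM at ZT6 and 37.0 ± 8.93 CPM at ZT0, and Fezf1 18.7 ± 5.30 CPM at ZT6 and 17.6 ± 6.55 CPM at ZT0.

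**Figure D2:**
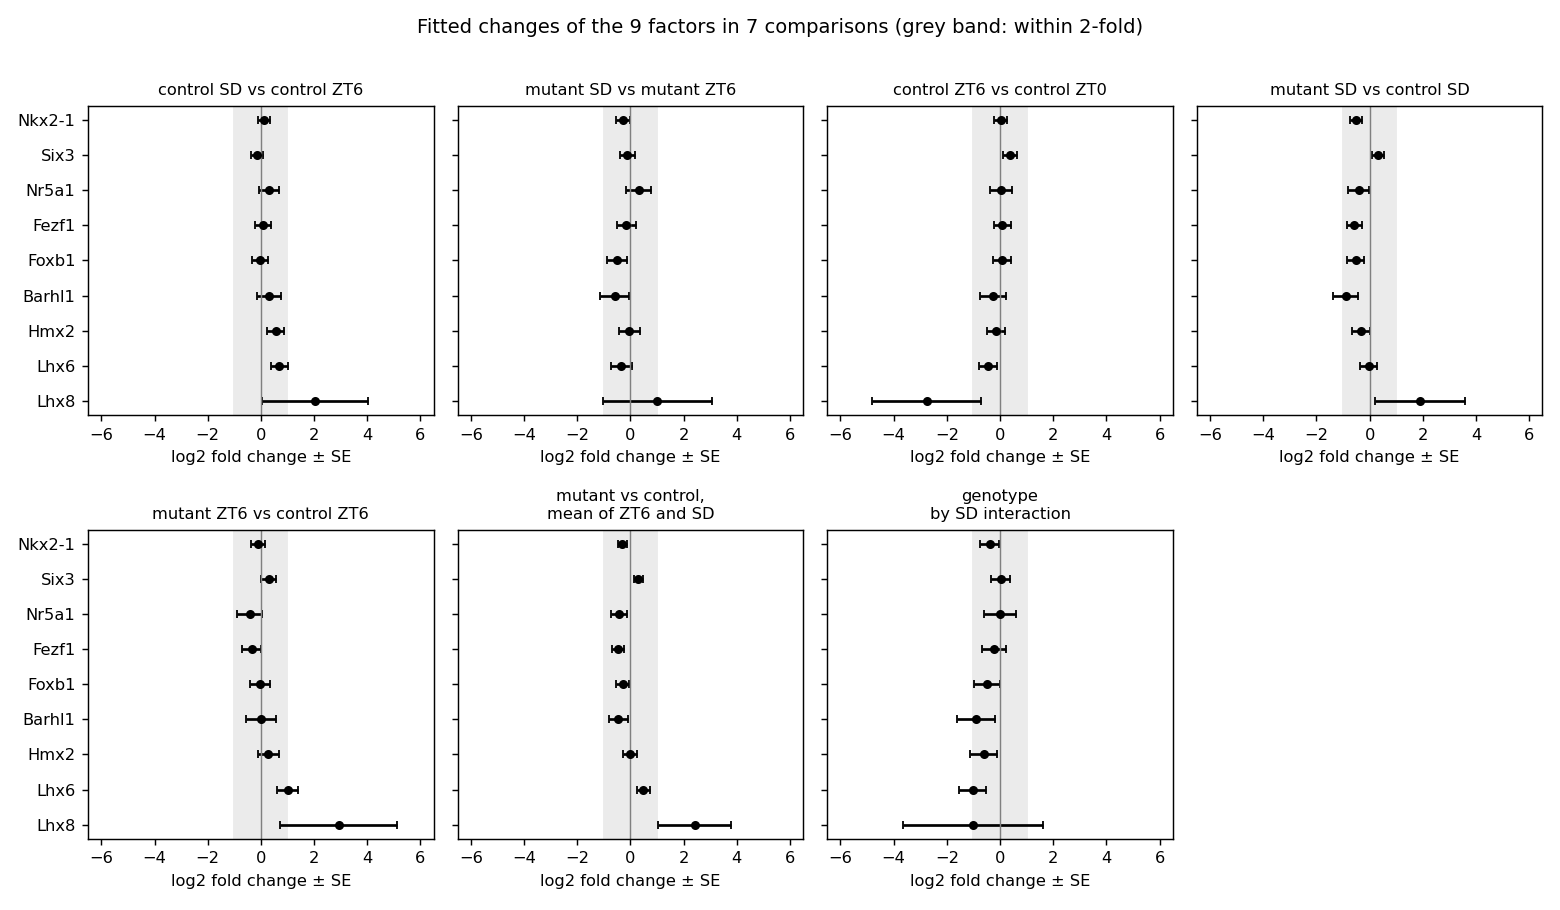
Fitted log2 fold change (x axis, ± SE) of each of the 9 factors (y axis) in 7 comparisons (panels), with a grey band for changes within 2-fold. Apart from Lhx8, the points lie between −1.03 and 1.00, and no point passed the test.

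Lhx8 was counted so rarely that its libraries are given as counts. It had 5, 66, 0 and 18 counts in mutant SD libraries, 0 and 22 in mutant ZT6 libraries, 0, 4, 19 and 0 in control SD libraries, 0, 0, 4 and 0 in control ZT6 libraries and 0, 23 and 8 in control ZT0 libraries. In 8 of the 17 libraries no count was found, which allows up to 0.0639 to 0.205 CPM, and the 66 counts of mutant SD replicate 2 are 2.22 CPM. Each group held at least 1 library at 0, and the groups overlapped. Fitted fold changes of a gene with so many libraries at 0 depend on how a 0 is treated. For Lhx8 they ran from −2.75 (control ZT6 against control ZT0) to 2.92 (mutant ZT6 against control ZT6) on the log2 scale, with SEs from 1.38 to 2.64, and no direction is read from them, although their signs enter the counts over the 9 factors. Markers of basal forebrain cholinergic neurons, a list of 6 genes such as Chat, Slc5a7 and Slc18a3, summed to 6.21 to 22.9 CPM over the 17 libraries.

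Across the 17 libraries, Nkx2-1 and Foxb1 were high in the same libraries. With log2(CPM + 0.1), Pearson's r was 0.896 (permutation p = 3e-05, two-sided, 100000 resamples, adjusted p = 0.00108 over the 36 pairs of factors) and Spearman's rho 0.902 (permutation p = 1e-05, the smallest that 100000 resamples can give, adjusted p = 0.00036). Foxb1 had from 12.3 CPM in control SD replicate 3, where Nkx2-1 had 26.8 CPM, to 33.4 CPM in control ZT0 replicate 3, where Nkx2-1 had 44.5 CPM. The ratio of Foxb1 to Nkx2-1 counts stayed between 0.459 and 0.762, with a median of 0.602. The relation held without the 2 libraries farthest from the Nkx2-1 median (r = 0.870), with values centred on the group means (r = 0.893), in the 13 libraries of index numbers 1 to 18 (r = 0.914) and in the 9 of index numbers 5 to 18 (r = 0.835, exact permutation p = 0.00128, adjusted p = 0.0461). Leaving out any 1 library gave r from 0.882 to 0.915.

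**Figure D3:**
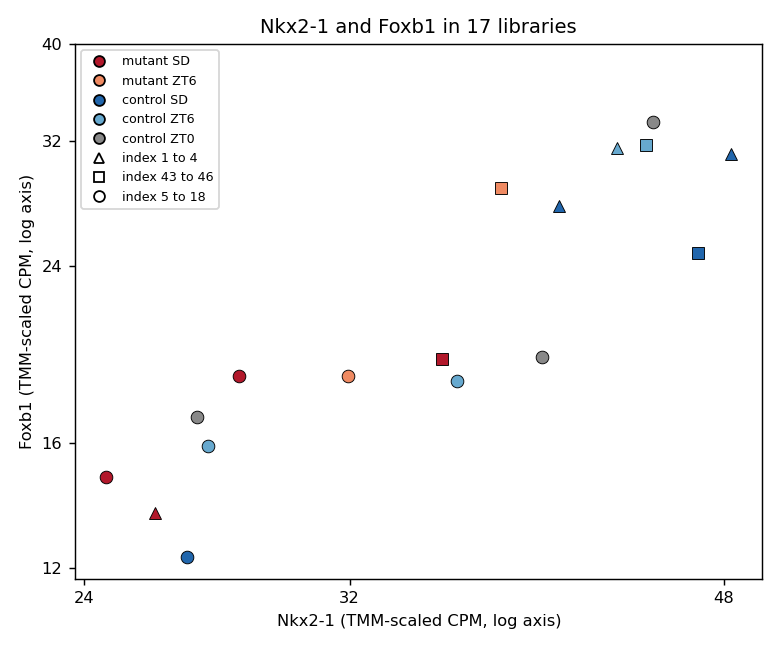
Foxb1 (y axis) against Nkx2-1 (x axis), both as TMM-scaled CPM on log axes, 1 point for each of the 17 libraries, coloured by group and shaped by index number. Both levels go up together (r = 0.896), with mutant SD libraries at 24.6 to 35.4 CPM of Nkx2-1 and 13.6 to 19.4 CPM of Foxb1.

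Among the other 35 pairs, 2 had an adjusted p under 0.05 by Pearson's r and neither by Spearman's rho. With each library left out in turn, Pearson's r of Fezf1 and Barhl1 passed in 8 of 17 runs. That of Lhx6 and Lhx8 passed in 5 of 17. Fezf1 and Barhl1 had r = 0.699 (adjusted p = 0.0461) and rho = 0.667 (adjusted p = 0.0554), with r = 0.592 without the 2 libraries farthest from the Fezf1 median and 0.466 in the 9 libraries of index numbers 5 to 18 (adjusted permutation p = 0.643). Lhx6 and Lhx8 had r = 0.650 (adjusted p = 0.0463) and rho = 0.667 (adjusted p = 0.0554), with r = 0.689 in the 9 libraries of index numbers 5 to 18 (exact permutation p = 0.0405, adjusted p = 0.486), and 8 of the Lhx8 values stand at 0. The 2 ventromedial factors, Nr5a1 and Fezf1, had r = 0.631 (adjusted permutation p = 0.0654), and 0.720 in the 9 libraries of index numbers 5 to 18 (exact permutation p = 0.0242, adjusted p = 0.436). Their ratio of counts, Nr5a1 to Fezf1, ran from 0.640 to 1.32 in 16 libraries and was 1.91 in mutant SD replicate 1. That library had 13.9 CPM of Gnrhr, the receptor on pituitary gonadotropes, 121 CPM of Lhb and 185 CPM of Fshb, the hormone subunits that these cells make. Nr5a1 is also on in gonadotropes, and their part in the 23.3 CPM of that library was not tested. For Nkx2-1 and Six3, both broad in the embryonic hypothalamus, r was −0.07 (adjusted permutation p = 0.921). Their ratio of counts, Six3 to Nkx2-1, was 2.33 in mutant SD replicate 1 and 0.599 to 1.60 in the other 16 libraries.

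**Figure D4:**
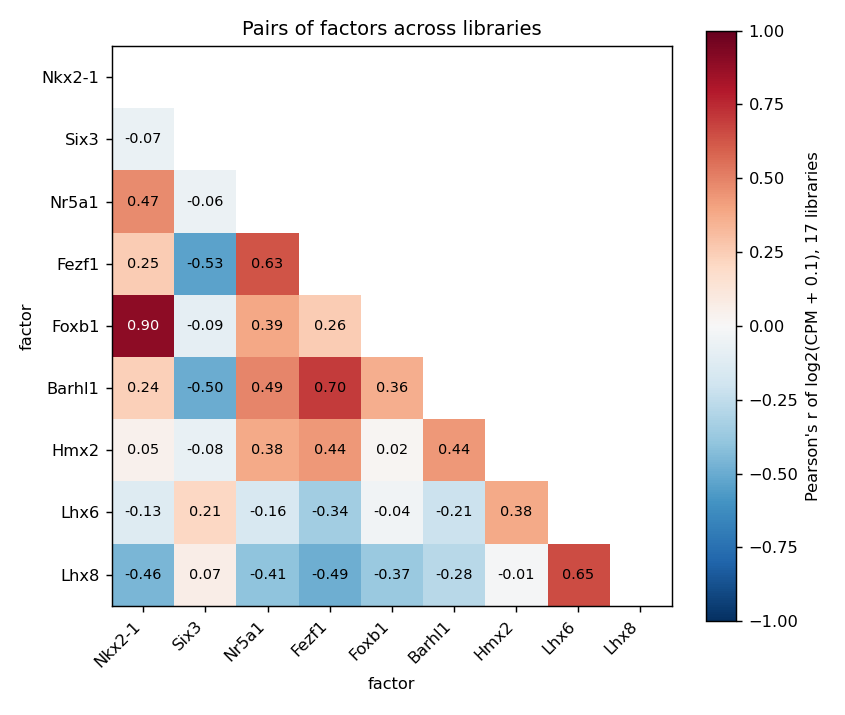
Pearson's r of log2(CPM + 0.1) over 17 libraries for each of the 36 pairs of factors (rows and columns), red for positive and blue for negative. The darkest cell is Nkx2-1 with Foxb1 (r = 0.896), followed by Fezf1 with Barhl1 (r = 0.699).

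The neighbouring regions were also set beside the factors, as sums of thalamus, striatum and cortex or hippocampus markers, 27 relations in all. Nr5a1 and the 7 striatum markers (such as Drd1, Drd2 and Ppp1r1b) had r = 0.712 (permutation adjusted p = 0.0294 over the 27) and rho = 0.838 (adjusted p = 0.0027). Without the 2 libraries farthest from the Nr5a1 median r was 0.776, and in the 9 libraries of index numbers 5 to 18 it was 0.571 (exact permutation p = 0.115). No other of the 27 passed, Six3 with thalamus markers having r = 0.419 (adjusted permutation p = 0.474).

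The 3 genes most like each factor over the 17 libraries were taken from 16747 genes of at least 1 CPM on average, by Pearson's r of log2(CPM + 0.1), and are a description. For Nkx2-1 they were Hs3st1 (0.896), Foxb1 (0.896) and Cpne9 (0.859), and for Foxb1 they were Nkx2-1 (0.896), Cpne9 (0.827) and Hs3st1 (0.806), so that both factors had each other and the same 2 further genes. For Six3 they were Klhl31, Capsl and Stk33 (0.876 to 0.893). For Nr5a1 they were Ercc2, Plod3 and Mical2 (0.909 to 0.9195), and Fezf1 stood at rank 1361. For Fezf1 they were Etnk2, Slc2a6 and Doc2a (0.875 to 0.888), and Barhl1 stood at rank 177. For Barhl1 they were Poldip2, Gls2 and Zc3hc1 (0.841 to 0.869), for Hmx2 Rap1gap2, Timp2 and Cdh24 (0.787 to 0.895), for Lhx6 Cyb5d1, Gucy1b1 and Fam163a (0.841 to 0.857), and those for Lhx8 included Magi3 (0.805) and Jade1 (0.746). All points share the libraries and their depth.

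The number after the S in each sample title, called the library index number here, falls into 1 of 3 sets that cut across the groups. Of the 9 factors, 1 (Nr5a1) was called higher in one set and 2 (Six3 and Nkx2-1) in another. Of all genes, 18.3% and 22.4% were called in these comparisons, so the factors were called no more often than genes at large. The sets were defined after the data were seen. The labels do not say what the numbers stand for. The sets are 1 to 4 (2 control SD, 1 mutant SD and 1 control ZT6 library), 43 to 46 (1 library of each group at ZT6 or SD) and 5 to 18 (9 libraries, all 3 of control ZT0 among them). In a fit with group and set together, 18.3% of genes were called between index numbers 1 to 4 and 5 to 18, and 1 of the 9 factors. Nr5a1 had 28.5, 23.3, 24.1 and 29.0 CPM in the 4 libraries of index numbers 1 to 4, and from 9.55 through a median of 11.7 to 22.7 CPM in the 9 of index numbers 5 to 18. The ranges did not overlap, and the share of all genes for which this is so between these sets was not counted. The means were 26.2 ± 2.92 CPM in index numbers 1 to 4 (n = 4) and 12.7 ± 4.10 CPM in index numbers 5 to 18 (n = 9), a log2 fold change of 1.23 ± 0.19 with an adjusted p of 0.00176 in edgeR's quasi-likelihood test. It was 1.11 to 1.27 without any 1 library, and 1.12 with an adjusted p of 0.141 without the 3 libraries with pituitary markers, where 2 genes in all were called. Of index numbers 1 to 4, that fit kept control SD replicates 1 and 2 alone. Striatum markers summed to 155 to 219 CPM in index numbers 1 to 4 and to 120 to 153 CPM in index numbers 5 to 18, which do not overlap. Neuron markers had a median sum of 2501 CPM in index numbers 1 to 4 and 3155 CPM in index numbers 5 to 18. Pituitary markers had medians of 351 CPM and 3.37 CPM, but were uneven within index numbers 1 to 4. They summed to 7.71 CPM in control SD replicate 1 and 25.1 CPM in control SD replicate 2. In control ZT6 replicate 1 they summed to 678 CPM and in mutant SD replicate 1 to 20844 CPM. Nr5a1 in these 4 libraries, in that order, was 28.5, 24.1, 29.0 and 23.3 CPM. The part of these markers in the Nr5a1 difference was not tested. The highest Nr5a1 library of index numbers 5 to 18, at 22.7 CPM, was control ZT0 replicate 1. Fezf1, the other ventromedial factor, had a log2 fold change of 0.44 ± 0.24 between these sets (adjusted p = 0.215, edgeR), with 12.2 CPM in the mutant SD library and 24.97 to 26.3 CPM in the other 3 libraries of index numbers 1 to 4.

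Between index numbers 43 to 46 and 5 to 18, 22.4% of genes were called, and 2 of the 9 factors. Six3 had 51.0, 54.8, 46.9 and 60.2 CPM in the 4 libraries of index numbers 43 to 46, and from 30.5 through a median of 35.2 to 43.3 CPM in the 9 of index numbers 5 to 18. The sets did not overlap, and here too the share of all genes for which this is so was not counted. The log2 fold change was 0.52 ± 0.16 with an adjusted p of 0.0295 in edgeR's test. It was 0.34 with an adjusted p of 0.171 without control SD replicate 4, and the call was also lost without any 1 of mutant ZT6 replicates 1 and 4, mutant SD replicates 2 and 3, and control ZT0 replicate 2. Nkx2-1 had 35.4, 46.7, 44.1 and 37.7 CPM in index numbers 43 to 46, and from 24.6 through 28.4 to 44.5 CPM in index numbers 5 to 18, a log2 fold change of 0.46 ± 0.16 with an adjusted p of 0.0497 that lay above 0.05 under RLE factors (0.0749), with DESeq2 (0.0514), without the 3 libraries with pituitary markers (0.161) and without any 1 of 13 libraries. That of Six3 was 0.0499 without the 3 libraries with pituitary markers. Foxb1 had a log2 fold change of 0.61 ± 0.23 (adjusted p = 0.0693, edgeR).

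**Figure D5:**
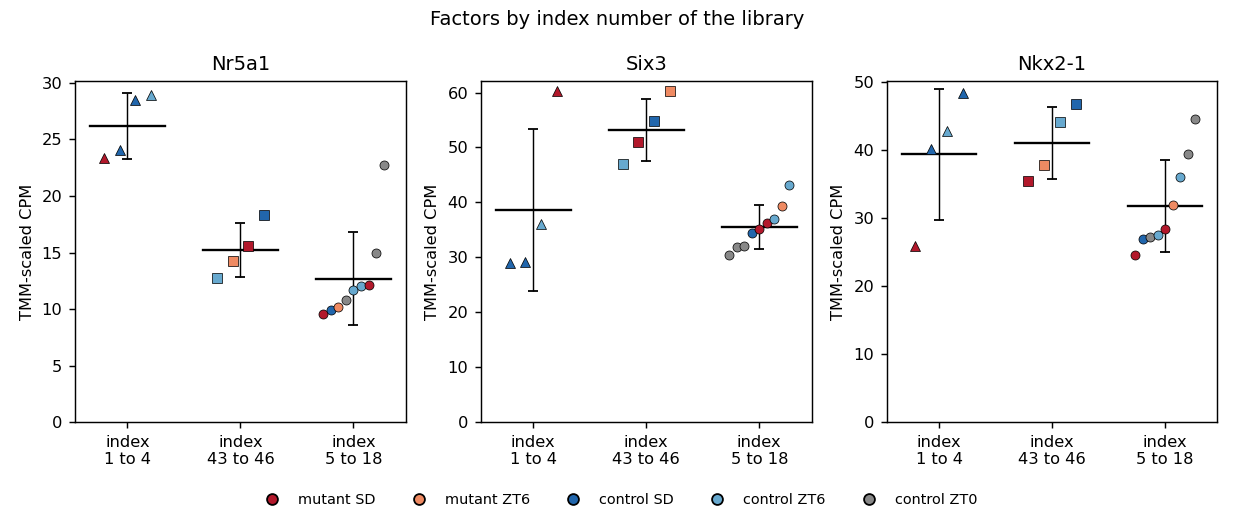
Level (y axis, TMM-scaled CPM, from 0) of Nr5a1, Six3 and Nkx2-1 in libraries of index numbers 1 to 4, 43 to 46 and 5 to 18 (x axis), 1 point a library in order of level, with mean (line) and standard deviation (bar) and colours for the groups. Nr5a1 lies above 23 CPM in all 4 libraries of index numbers 1 to 4 and Six3 above 46 CPM in all 4 of index numbers 43 to 46.

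The 43 other regional factors were read in the same fits. None was called by edgeR in any of the 7 comparisons of genotype, SD and time. Among the 3 smallest unadjusted p values of each comparison were those of Irx5 (2.43 CPM in mutant SD and 4.64 CPM in control SD mice, log2 fold change −0.94 ± 0.32) and Bsx between genotypes after SD. At ZT6 they were those of Dlx5 (8.07 CPM in mutant ZT6 and 4.34 CPM in control ZT6 mice, 0.89 ± 0.37), Dlx2 and Otp, and for the mean genotype difference Dlx5 and Meis2 were among them. For SD they included Onecut2 and Foxa1 in control mice and Otp, Nkx2-2 and Nkx6-2 in mutant mice, and for the interaction Dlx2, Irx5 and Hmx3. Between control ZT6 and control ZT0 they were Rax (6.20 CPM at ZT6 and 1.87 CPM at ZT0, 1.73 ± 0.64), Nkx6-2 and Hmx3. Their medians there ran from −0.22 (mutant SD against mutant ZT6, and the interaction) to 0.21 (control ZT6 against control ZT0). Between index numbers 43 to 46 and 5 to 18, 11 of the 43 were called higher and none lower, beside 12.7% and 9.75% of all genes. Among them were Barhl2, Lhx5, Otp, Uncx, Hmx3, Irx3, Nkx2-2, Nkx6-2, Lhx2 and Lmx1b. Barhl2 averaged 8.58 ± 1.42 CPM in index numbers 43 to 46 (n = 4) and 3.95 ± 0.865 CPM in index numbers 5 to 18 (n = 9), a log2 fold change of 1.26 ± 0.18, while its paralog Barhl1 had one of −0.25 ± 0.38 (adjusted p = 0.673, edgeR). Thalamus and cortex or hippocampus markers summed to 514 to 791 and 49.0 to 55.6 CPM in index numbers 43 to 46. In index numbers 5 to 18 they summed to 368 to 561 and 33.4 to 45.9 CPM. Whether each of these markers is confined to its region was not tested, nor was their part in the differences between the sets. Between index numbers 1 to 4 and 5 to 18, 3 of the 43 were called higher (Lhx1 among them) and 7 lower (Pou3f2, Dlx6, Dlx1, Rorb, Onecut2, Meis2 and Onecut3), beside 10.9% and 7.43% of all genes.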

How the data were processed

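Per the labels' protocols, RNA was taken up in Trizol, made into TruSeq poly(A) libraries, sequenced on a NovaSeq, trimmed with Trimmomatic 0.38, assigned to transcripts by kallisto 0.44.0 with an Ensembl annotation, and summed to genes with tximport. The deposited values are expected counts (kallisto's estimated counts), whole in the file. Their totals differ between libraries, and which tximport count setting made them is not given in the sources used here. Of 41461 table lines, 5 with repeated gene IDs were dropped. The 5 libraries left out are 1 with 7348 counts and 4 with hardly any neuronal RNA.

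Counts were tested with edgeR 4.0.16 in R 4.3.3 (TMM factors, filterByExpr with a minimum count of 10 and a minimum total of 15, 21346 genes, quasi-likelihood F tests) in 1 fit of 5 groups, with Benjamini-Hochberg adjustment over all genes and calls under 0.05. Each SE was derived from the F statistic, as the size of the log2 fold change divided by its square root. Index sets were terms in a further fit, chosen after seeing the data. Replicate numbers follow accession order and pair no samples. The labels do not tie libraries to separate animals, so p-values measure the spread between these samples. The limits given for counts of 0 take in counting error alone, as the reads carry no molecular identifiers and may repeat 1 molecule.

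Relations across libraries used log2(CPM + 0.1) and two-sided permutation tests. Named genes are every factor, the 3 genes most like each, and of 43 other factors those called or else the 3 with the smallest p. Some genes that this rule names are not reported here. The factors, lists and index sets were chosen with earlier results of these data known. The edgeR fit was tested on simulated data. Alternatives were RLE factors, DESeq2 1.42.0, no filter, a 2-fold limit, title-number and index covariates, other sets of libraries and each library left out.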

Additional observations from a re-analysis of the deposited data

Results flagged for a closer look

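Of 27 sets of values of 1 factor in 1 group of 4 libraries, 4 had 1 library far from the other 3, and chance flags about 1 in 20. That rate does not apply to the 2 of Lhx8, whose groups hold mostly libraries at or near 0. Nr5a1 was 29.0 CPM in control ZT6 replicate 1, which has an index number from 1 to 4 and pituitary markers at 678 CPM, and 11.7 to 12.7 CPM in the other 3. Fezf1 was 17.5 CPM in mutant SD replicate 3 and 11.4 to 12.2 CPM in the other 3. Lhx8 was 0.234 CPM in control ZT6 replicate 3, from 4 counts, and 0.782 CPM in control SD replicate 3, from 19 counts.

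In 3 of the 4 libraries left out for their lack of neuronal RNA, all of mutant mice, Lhx8 was above its highest control value of 0.883 CPM, and the fourth (mutant ZT0 replicate 1) had no count. Among the mutant libraries that were kept, the highest value was 2.22 CPM. It had 1.34 CPM in mutant ZT0 replicate 2, 6.09 CPM in mutant ZT0 replicate 3 and 3.32 CPM in mutant ZT6 replicate 3, from 43, 19 and 59 counts, as shares of each library's own total. Lhx6 had 93 counts in mutant ZT0 replicate 1, 13 in replicate 2 of the same group and 15 in mutant ZT6 replicate 3. Nr5a1 had 27 counts in mutant ZT0 replicate 2. Nkx2-1 had 8 counts in mutant ZT6 replicate 3 and none in the 3 libraries of mutant ZT0 mice.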

How the results depend on the processing

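No paired analysis was possible because the labels carry no replicate numbers; title runs and index sets entered as covariates. No factor passed in the 7 comparisons of genotype, SD and time under any alternative (lowest adjusted p 0.289). Of 626 values from alternatives other than leaving out 1 library, 63 changed sign, 23 of them by more than 1 SE; of 1071 that left out 1 library, 67 and 7 did. The causes were not tested.

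Genes called by DESeq2 numbered 18 (control SD against ZT6), 17 (mutant SD against ZT6), 23 (control ZT6 against ZT0), 1 (mutant against control SD), 15 (mutant against control ZT6), 5 (mean genotype) and 8 (interaction). For control SD against ZT6, 1 was called with no filter, 1 without index numbers 43 to 46 and 2 without the 3 libraries with pituitary markers. Title runs as a covariate gave 4 (mutant SD against ZT6), 1 (control ZT6 against ZT0), 5 (mutant against control SD) and 4 (interaction), and index sets 3 (mutant against control SD). All 22 libraries gave 173 (mutant SD against ZT6). Without the pituitary libraries, 1 was called between genotypes at ZT6, 1 for the interaction, 2 between index numbers 1 to 4 and 5 to 18 (0 factors) and 2017 between 43 to 46 and 5 to 18 (1 factor). RLE, no filter and DESeq2 also left 1 factor called there. Of 3 pairs passing, 1 passed within index numbers 1 to 18, 1 within 5 to 18 and 1 without the 2 farthest libraries.

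With all 22 libraries, log2 fold changes turned to 0.36 (Nkx2-1), 0.48 (Fezf1), 0.20 (Lhx6), 0.14 (Foxb1), 0.54 (Six3) and 0.55 (Hmx2) for mutant SD against ZT6, −0.33 (Six3) and −0.26 (Hmx2) for mutant against control ZT6, and 0.23 (Nkx2-1), 0.38 (Fezf1) and 0.15 (Foxb1) for the interaction. Without index numbers 43 to 46, Lhx6 turned to 0.18 for mutant SD against ZT6, and Lhx8 to −4.05 between genotypes at ZT6, −1.30 for mean genotype and 5.503 for the interaction (2.92, 2.41 and −1.02 with all 17). For control ZT6 against ZT0, title runs gave −0.22 (Nkx2-1), −0.46 (Nr5a1) and −0.30 (Foxb1), and index sets −0.51 (Nr5a1) and −0.31 (Foxb1). Title runs gave 0.023 for Foxb1 in the interaction. Without the pituitary libraries, Nr5a1 was −0.41 for control ZT6 against ZT0 and −0.83 for the interaction, and Six3 −0.39 between index numbers 1 to 4 and 5 to 18.

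Leaving out 1 library gave 0 to 1 called genes (control SD against ZT6, and control ZT6 against ZT0), 0 to 3 (mutant SD against ZT6), 0 to 2 (genotypes at ZT6, mean genotype and interaction), 1928 to 5212 (index numbers 1 to 4, 1 to 2 factors), 3066 to 6368 (43 to 46, 0 to 4 factors) and 1 to 4 pairs. Lhx6 ran from −0.71 to 0.19 (mutant SD against ZT6) and −0.22 to 0.31 (index numbers 1 to 4), Nr5a1 from −0.41 to 0.35 (control ZT6 against ZT0), and Six3 from −0.38 to 0.19 (mutant SD against ZT6) and −0.25 to 0.17 (index numbers 1 to 4). Lhx8 ran from −0.26 to 5.72 (control SD against ZT6), −3.63 to 6.58 (genotypes at ZT6), −0.86 to 4.24 (mean genotype) and −4.68 to 5.54 (interaction). Lhx8 had 169 counts in all, and no direction is read from its values.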
